A study of Mus musculus with 12 samples.

Results

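Collagens and laminins are the 2 large families of structural chains of the extracellular matrix, and every chain of either family was taken from the expression table by its gene symbol, giving 55 of the 34745 genes listed: 11 fibrillar collagens, 8 basement membrane collagens, 25 other collagens and 11 laminins. The cells were hippocampal neural stem cells in primary culture from wild-type C57BL/6 mice, grown in DMEM/F12 with B27, penicillin/streptomycin, epidermal growth factor, basic fibroblast growth factor and heparin. P10 EV cells were at passage 10 after treatment over passages 2 to 10 with ESC-sEVs, the small vesicles that embryonic stem cells release. P10 PBS cells were at passage 10 after an equal volume of phosphate-buffered saline over the same passages. P2 cells were at passage 2, and the labels name no separate treatment for them. Each group had 4 libraries of poly(A) RNA, and the labels do not say whether the replicates came from separate animals or cultures (replicates of the same number share a code across the groups), so every p-value here measures only the spread between these libraries. The comparisons ask how the levels of these chains differed after passaging and after vesicle treatment.

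Collagen chains assemble in threes into triple helices. Fibrillar collagens form the banded fibrils of connective tissue, type IV collagen forms the sheet of the basement membrane, and the other collagens decorate fibrils, span membranes or form finer networks. A laminin is a cross of 1 alpha, 1 beta and 1 gamma chain that polymerises beside the type IV collagen sheet and binds integrins and dystroglycan on cells. In the brain these proteins line blood vessels, the pial surface and the speckled matrix of the stem cell niches, and cultured neural stem cells secrete laminin themselves.

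The libraries held 10736538 to 16807647 counts, and 19698 to 20562 genes had at least 1 count. Summed levels of 10 neural stem cell markers ranged over 5657 to 5724 CPM (counts scaled to a common, TMM-adjusted library total) in P10 EV, 6062 to 6827 CPM in P10 PBS and 5826 to 7414 CPM in P2 libraries. As a sum, these markers were thus expressed in every library, which does not by itself establish the identity of the cells. Some libraries stood apart. A list of 10 liver genes summed to 48.5 CPM in P10 EV replicate 1, 48.3 CPM in P10 PBS replicate 1, and 49.9 and 57.5 CPM in P2 replicates 1 and 2, against at most 1.60 CPM in every other library. Sox10, a transcription factor of the oligodendrocyte lineage, was at 108, 119 and 55.1 CPM in P2 replicates 2, 3 and 4, against 1.84 to 18.9 CPM in the other 9 libraries, while the 9 genes of the oligodendrocyte list summed to 2563 to 2904 CPM in P10 EV, 2311 to 3024 CPM in P10 PBS and 2166 to 3274 CPM in P2 libraries. Of 12 mural and fibroblast markers, Lum and Dpt were at 0 and the list summed to 3.76 to 13.4 CPM over all libraries. In these bulk samples, fewer cells that express a gene and less RNA per cell cannot be told apart.

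Several chains lie beside each other in the genome. Coordinates are those of the deposited table, and 52 of the 55 loci are the same in GENCODE M21 on mouse build GRCm38. Col4a1 (chr8:11198423-11312826, minus strand) and Col4a2 (chr8:11312805-11449287, plus strand) are transcribed away from each other and overlap by 22 bases at their starts. Col4a4 and Col4a3 on chromosome 1 are also head to head, 71 bases apart, and so are Col4a6 and Col4a5 on chromosome X, 1308 bases apart. Among the 55 chains, Lama5, Col9a3 and Col20a1 follow each other on chromosome 2, with gaps of 371930 and 364345 bases. Genes of other families within these gaps were not looked at. Whether the counting used strand is not given in the sources used here, so reads within the overlap of Col4a1 and Col4a2 could belong to either gene.

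The RefSeq table of promoters (GRCm38.p6), with windows of 250 bases before to 50 bases after a transcript start, held 44 windows for 40 of the 55 genes. The windows of Col4a1 (chr8:11312777-11313076, minus strand) and Col4a2 (chr8:11312555-11312854, plus strand) are shown because the only chain called in any comparison is in this pair. They share 78 bases (chr8:11312777-11312854), printed in capitals on the opposite strands, of which 73.1% are G or C.
Col4a1: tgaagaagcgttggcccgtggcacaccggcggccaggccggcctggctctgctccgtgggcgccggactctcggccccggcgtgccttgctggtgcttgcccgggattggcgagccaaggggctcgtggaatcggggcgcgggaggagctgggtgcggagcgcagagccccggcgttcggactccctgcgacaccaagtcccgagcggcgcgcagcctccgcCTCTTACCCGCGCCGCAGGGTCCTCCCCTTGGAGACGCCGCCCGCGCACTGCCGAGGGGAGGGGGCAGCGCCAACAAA
Col4a2: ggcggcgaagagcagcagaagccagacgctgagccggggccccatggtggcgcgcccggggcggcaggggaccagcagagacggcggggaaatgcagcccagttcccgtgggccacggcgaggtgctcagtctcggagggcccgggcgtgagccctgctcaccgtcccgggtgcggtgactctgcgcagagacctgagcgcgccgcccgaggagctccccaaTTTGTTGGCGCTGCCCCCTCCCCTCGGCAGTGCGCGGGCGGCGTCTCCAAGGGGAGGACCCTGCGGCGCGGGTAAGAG
The windows of Col5a3 (chr9:20815018-20815317, minus strand) and Lama5 (chr2:180225810-180226109, minus strand) are shown for a fibrillar and a laminin chain described further on. Capitals mark GGGCGG, the core of the GC box, on either strand.
Col5a3: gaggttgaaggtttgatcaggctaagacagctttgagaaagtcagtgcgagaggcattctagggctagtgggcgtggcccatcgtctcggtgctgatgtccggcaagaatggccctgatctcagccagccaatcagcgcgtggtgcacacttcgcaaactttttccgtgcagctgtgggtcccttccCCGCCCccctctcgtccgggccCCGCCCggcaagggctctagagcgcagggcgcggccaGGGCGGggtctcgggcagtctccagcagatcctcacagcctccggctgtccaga
Lama5: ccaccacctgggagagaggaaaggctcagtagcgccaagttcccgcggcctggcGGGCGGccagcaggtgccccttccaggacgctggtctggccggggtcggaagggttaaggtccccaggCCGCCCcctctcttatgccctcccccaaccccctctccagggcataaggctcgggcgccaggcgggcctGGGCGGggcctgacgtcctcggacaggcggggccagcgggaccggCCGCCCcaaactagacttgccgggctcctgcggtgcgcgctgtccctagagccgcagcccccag
GGGCGG was found on either strand 1 time in the Col4a1 window, 3 times in that of Col4a2, 3 times in that of Col5a3 and 4 times in that of Lama5. CCAAT, again on either strand, was in the windows of Col4a1, Col4a2 and Col5a3 and not in that of Lama5, and TATAAA was in none of the 4. Over all chains, GGGCGG was in 26 of 44 windows (59.1%), against 35.7% of the 32851 windows of all genes. CCAAT was in 14 of 44 (31.8%, against 37.4%) and TATAAA in 5 of 44 (11.4%, against 13.6%). A match describes the letters and does not show a binding site.

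Laminins were the most expressed of the 4 classes. Levels between genes are compared in FPKM, the deposited value scaled by gene length and library size, as the mean of 12 libraries. Lamc1, the gamma chain of most laminins, averaged 34.6 FPKM and Lama5, the alpha chain of laminins that sustain pluripotent and epithelial cells, 33.9 FPKM. The beta chains Lamb2 and Lamb1 averaged 15.1 and 5.68 FPKM, and the alpha chains Lama1, Lama4 and Lama2 averaged 2.70, 1.28 and 0.341 FPKM. Lama3 and Lamb3, known best from epithelia, were at 0.0572 and 0.0781 FPKM, and Lamc3 was at 0.0126 FPKM. Alpha chains summed to a median of 34.3 FPKM in P10 EV, 43.8 FPKM in P10 PBS and 34.7 FPKM in P2 libraries. Gamma chains summed to a median of 33.5 FPKM in P10 EV, 37.1 FPKM in P10 PBS and 32.5 FPKM in P2 libraries, and beta chains to 17.4 FPKM in P10 EV, 22.7 FPKM in P10 PBS and 22.6 FPKM in P2 libraries.

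The type V chains led the fibrillar collagens. Col5a2, Col5a3 and Col5a1, whose protein regulates the diameter of collagen fibrils, averaged 8.83, 7.59 and 3.70 FPKM, and Col11a1, a chain of the closely related type XI collagen, averaged 3.41 FPKM. The chains of the major collagens of skin, bone and cartilage were near the bottom: Col1a1 averaged 0.234 FPKM, Col2a1 0.131 FPKM, Col3a1 0.0235 FPKM and Col1a2 0.00861 FPKM. Type I collagen is built from Col1a1 and Col1a2, and Col1a2 had 4 counts in P10 EV libraries together, 0 in P10 PBS libraries and 17 in P2 libraries. Col2a1 had 135 of its 159 counts in P2 replicate 2.

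Among basement membrane collagens, Col4a5 averaged 6.19 FPKM, Col4a1 3.78 FPKM, Col4a2 1.58 FPKM, Col4a6 1.29 FPKM and Col18a1, the precursor of endostatin, 1.21 FPKM. Of the pair that with Col4a5 forms the network of the kidney glomerulus, Col4a4 averaged 0.234 FPKM and Col4a3 0.0342 FPKM. Among the other collagens, Col16a1, Col9a3 and Col12a1 averaged 4.43, 3.99 and 3.53 FPKM. All 3 belong to the collagens with interrupted helices that attach to fibrils. Type VI collagen, the microfibril of muscle and connective tissue, was represented by Col6a1 at 0.637 FPKM and Col6a2 at 0.0678 FPKM. Every chain had at least 1 count in some library, and Col8a1 had 1 count in all. By the filter on low counts, 36 of the 55 chains could be tested: 7 of 11 fibrillar, 6 of 8 basement membrane, 16 of 25 other collagens and 7 of 11 laminins. The 19 chains that did not pass averaged 0.00133 to 0.131 FPKM, and among them were Col1a2, Col2a1, Col3a1, Col24a1, Col4a3, Col15a1, Lama3, Lamb3, Lamc3, Col6a2, Col6a3, Col6a4, Col6a5, Col6a6, Col8a1, Col8a2, Col13a1 and Col25a1.

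**Figure D1:**
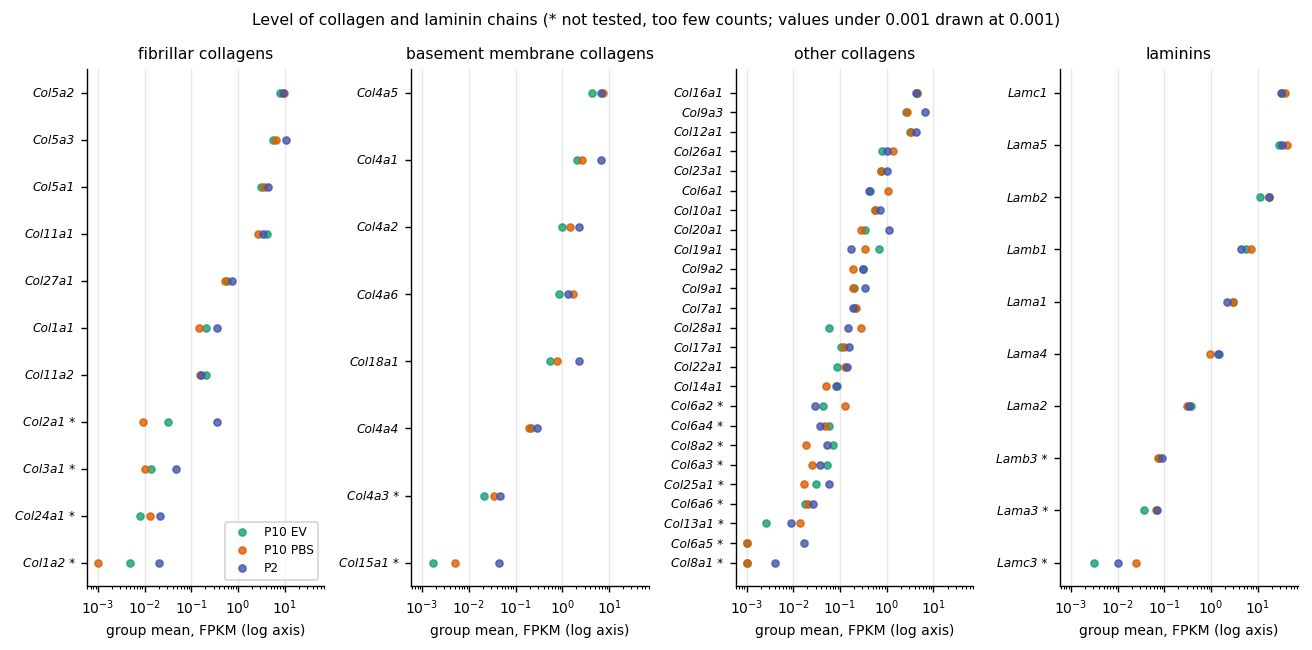
Mean FPKM (log axis) of the chains in P10 EV, P10 PBS and P2 libraries, 4 libraries a group, with chains sorted by level within their class; an asterisk marks chains with too few counts to test. Lamc1 (34.6 FPKM over all libraries) and Lama5 (33.9 FPKM) are at the top, and the chains of types I, II and III lie under 1 FPKM.

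Summed over each class, basement membrane collagens were the class in which P10 EV libraries lay below every library of both other groups. Their 8 chains summed to 10.2, 10.9, 7.93 and 6.89 FPKM in P10 EV replicates 1 to 4, against 22.1, 11.5, 11.9 and 11.5 FPKM in P10 PBS and 13.9, 27.9, 19.8 and 17.5 FPKM in P2 replicates 1 to 4. P10 PBS replicate 1 stood above the other P10 PBS libraries, and P2 replicate 2 was the highest of all. These are also the libraries with the most signal from 8 endothelial markers, which summed to 50.5 CPM in P10 PBS replicate 1 and 40.7 CPM in P2 replicate 2, against 6.60 to 16.4 CPM elsewhere, most of it from the receptor Flt1 at 45.0 and 36.8 CPM; the part of this signal in the sums was not tested. Fibrillar collagens had a median sum of 21.9 FPKM (range 19.5 to 24.0) in P10 EV, 22.5 FPKM (20.0 to 27.5) in P10 PBS and 30.9 FPKM (22.5 to 32.8) in P2 libraries, so the late groups overlapped P2 only through P2 replicate 1. Laminins had a median of 85.2 FPKM (66.4 to 95.5) in P10 EV, 102 FPKM (98.6 to 129) in P10 PBS and 84.2 FPKM (82.8 to 109) in P2 libraries. Every P10 EV library lay below every P10 PBS library in summed laminins, while P10 EV and P2 overlapped. The other collagens had a median of 14.8 FPKM (12.6 to 17.8) in P10 EV, 16.5 FPKM (12.8 to 20.0) in P10 PBS and 22.0 FPKM (15.9 to 24.7) in P2 libraries. These sums are descriptions and were not tested.

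**Figure D2:**
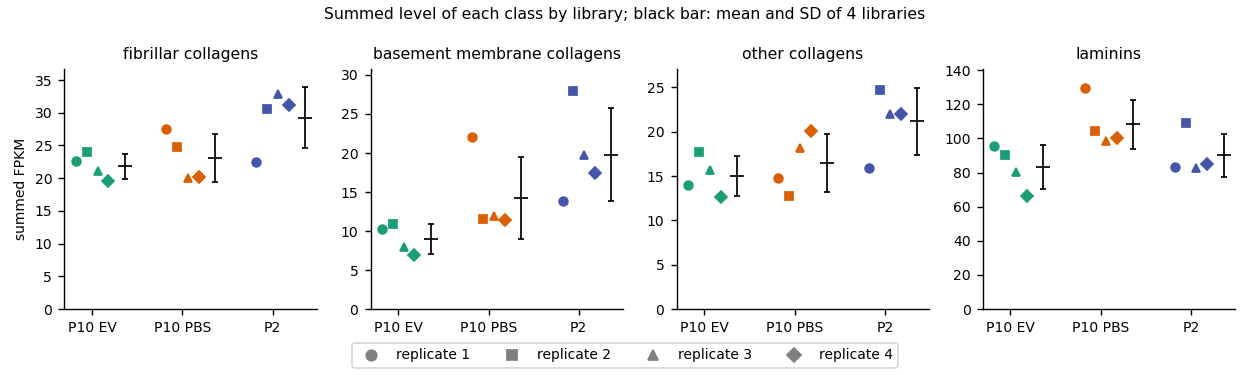
Summed FPKM of each class of chains in every library of P10 EV, P10 PBS and P2, with the mean and SD of 4 libraries as a black bar and the replicate number as the marker's shape. In basement membrane collagens the 4 P10 EV libraries (6.89 to 10.9 FPKM) lie below the other 8 (11.5 to 27.9 FPKM).

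In P10 EV against P2 cells, which differ in both passage and vesicle treatment, 1 chain fell and none rose. Col4a1, the chain that forms most of the type IV network in basement membranes, was at 13.8, 19.1, 13.5 and 9.13 CPM in P10 EV, against 31.7, 77.2, 44.7 and 37.8 CPM in P2 replicates 1 to 4. All P10 EV libraries lay below all P2 libraries, and P2 replicate 2 was the highest. The means were 13.9 ± 4.10 CPM in P10 EV and 47.8 ± 20.3 CPM in P2 cells (SD, n = 4 each), and the log2 fold change was -1.79 ± 0.30 (SE) with an adjusted p of 0.0267 by edgeR's quasi-likelihood test. Of 16058 genes tested, 0.585% were called in this comparison, 0.174% as higher and 0.411% as lower, and of the 36 chains tested 1 was called. At an unadjusted p under 0.05, 1 chain was higher and 8 lower (2.78% and 22.2%, against 8.28% and 10.9% of all genes), and DESeq2's Wald test called 6 as lower: Col4a1, Col4a2, Col18a1, Col5a3, Col9a3 and Col20a1, where it called 306 genes as higher and 618 as lower of 16050. The call rested on the set of libraries. It was lost on leaving out any 1 of the P10 EV libraries or P2 replicate 3 or 4. The adjusted p was then 0.0549 to 0.103 (edgeR). Those fits called 2 to 6 genes as higher and 6 to 25 as lower of 16134 to 16386, against 28 and 66 of 16058 as reported. The call was kept without P2 replicate 1 (adjusted p = 0.00421, edgeR) or P2 replicate 2 (0.0260). Leaving out P2 replicate 1 gave 8 chains called as lower, Col4a1, Col4a2, Col4a5, Col18a1, Col5a3, Col9a3, Col20a1 and Lamb2, in a fit that called 1392 genes as higher and 1429 as lower of 16148. Leaving out P2 replicate 2 gave 2, Col4a1 and Col9a3, beside 46 genes higher and 93 lower of 16088. The log2 fold change of Col4a1 without a library ranged from -1.97 to -1.46. Without the 4 libraries with liver transcripts it was -1.57, with an adjusted p of 0.00958 by edgeR. That fit kept only replicates 3 and 4 of P2, and it called 1699 genes as higher and 1636 as lower of 16215. Sox10 and Col4a1 were both lower in P10 EV than in P2 replicates 2 to 4, but in P2 replicate 1 Sox10 was at 5.28 CPM and Col4a1 at 31.7 CPM. The whole oligodendrocyte list summed to 2557, 3274, 2603 and 2166 CPM in P2 replicates 1 to 4, against 2563 to 2904 CPM in P10 EV. The part of oligodendrocyte lineage cells in the difference was not tested.

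Another 5 of the 36 tested chains had P10 EV libraries wholly below P2 without passing the threshold, the partner of Col4a1 in type IV collagen among them. Col4a2 was at 6.80, 8.82, 6.91 and 4.16 CPM in P10 EV, against 10.4, 22.3, 16.2 and 14.9 CPM in P2 libraries, a log2 fold change of -1.26 ± 0.27 (adjusted p = 0.0566, edgeR). Col5a3 was at 46.1, 40.0, 37.8 and 27.8 CPM in P10 EV, against 51.8, 69.7, 92.6 and 88.9 CPM in P2 libraries (-0.998 ± 0.22, adjusted p = 0.0607, edgeR). Its lowest P2 library, replicate 1, was close to the highest P10 EV library. Col9a3, a chain of the type IX collagen of cartilage, was at 14.0, 14.2, 15.7 and 13.4 CPM in P10 EV, against 33.4, 19.9, 62.8 and 40.4 CPM in P2 libraries (-1.45 ± 0.35, adjusted p = 0.0764, edgeR). Its P10 EV libraries lay close together and its P2 libraries were spread widely. Col18a1 was at 4.55, 8.40, 6.33 and 4.66 CPM in P10 EV, against 32.1, 42.3, 8.46 and 20.9 CPM in P2 libraries (-2.12 ± 0.57, adjusted p = 0.100, edgeR). P10 EV replicate 2 and P2 replicate 3 of Col18a1 differed by little, and P2 replicates 1 and 2 were the highest. Col27a1, a fibrillar collagen of cartilage, was at 9.75, 10.8, 7.48 and 9.93 CPM in P10 EV, against 11.3, 13.7, 13.5 and 13.5 CPM in P2 libraries (-0.45 ± 0.32, adjusted p = 0.448, edgeR).

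Over the 36 tested chains, 6 had every P10 EV library below every P2 library (16.7%, against 4.36% of all genes tested): Col4a1, Col4a2, Col18a1, Col5a3, Col9a3 and Col27a1. Col19a1 was the only chain with every P10 EV library above every P2 library (2.78%, against 4.66%). It was at 4.91, 6.21, 2.88 and 6.40 CPM in P10 EV, against 2.14, 2.63, 0 and 0.577 CPM in P2 libraries, with a log2 fold change of 1.90 ± 0.72 (adjusted p = 0.183, edgeR). The log2 fold changes of all 6 basement membrane collagens were below 0, with a median of -1.001, and those of fibrillar collagens, other collagens and laminins had medians of -0.45, -0.44 and 0.02. The median was -0.47 over the 36 chains and -0.01 over all genes tested. Lamc1 was at 394, 347, 318 and 280.2 CPM in P10 EV, against 358, 386, 279.8 and 300.0 CPM in P2 libraries, with overlapping groups and a log2 fold change of 0.02 ± 0.16.

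In P10 PBS against P2 cells, no chain was called by edgeR's test, against 0.928% of all genes tested, 0.380% as higher and 0.548% as lower. At an unadjusted p under 0.05, 0 chains were higher, against 5.97% of all genes, and 6 lower (16.7%, against 7.65% of all genes), and DESeq2's Wald test called 4 as lower: Col4a1, Col5a3, Col9a3 and Col20a1, where it called 232 genes as higher and 360 as lower of 16050. Col4a1 was at 22.5, 12.7, 22.3 and 19.6 CPM in P10 PBS libraries, all below the 31.7 to 77.2 CPM of P2 libraries (-1.31 ± 0.30, adjusted p = 0.0605, edgeR). Col20a1, a fibril-associated collagen, was at 1.09, 1.29, 0.936 and 1.74 CPM in P10 PBS, against 1.85, 4.68, 5.16 and 8.16 CPM in P2 libraries (-1.96 ± 0.45, adjusted p = 0.0638, edgeR). For these 2 chains the groups did not overlap, which was 5.56% of the chains tested and 3.12% of all genes. In the other direction 0 chains were free of overlap, against 2.58% of all genes. Col9a3 was at 14.1, 8.35, 26.5 and 16.5 CPM in P10 PBS libraries (-1.26 ± 0.35, adjusted p = 0.120, edgeR), and it was lower than in P2 in each of the 4 same-numbered pairs, while P10 PBS replicate 3 lay above P2 replicate 2. With the replicate number as a block it was called, at -1.26 ± 0.23 (adjusted p = 0.0416, edgeR), the only chain called in that fit, which called 64 genes as higher and 103 as lower of 16058. Col5a3 was at 59.3, 42.3, 36.9 and 40.8 CPM in P10 PBS libraries (-0.76 ± 0.21, adjusted p = 0.136, edgeR), with P10 PBS replicate 1 above P2 replicate 1. P2 replicate 1 bore on these values: without it, Col4a1, Col5a3 and Col20a1 were called as lower, with adjusted p of 0.0176, 0.0240 and 0.0112 (edgeR), in a fit that called 591 genes as higher and 615 as lower of 16148, against 61 and 88 with all libraries. Without P10 PBS replicate 2, Col27a1 alone was called as lower, beside 50 genes higher and 65 lower of 16393.

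Between P10 PBS and P2, laminins had a median log2 fold change of 0.27, basement membrane collagens -0.61, fibrillar collagens -0.33 and other collagens -0.31. Of the 36 chains 23 were below 0 (63.9%, against 51.2% of all genes), with a median of -0.30 against -0.01. Lamb1 had the highest log2 fold change of the laminins, 0.66 ± 0.32 (adjusted p = 0.392, edgeR), at 113, 87.5, 82.6 and 80.2 CPM in P10 PBS, against 68.7, 92.2, 23.3 and 45.4 CPM in P2 libraries. P2 replicate 2 lay within the P10 PBS range. Any 2 of the 3 comparisons share a group of libraries, so their values for a chain are not independent of each other.

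**Figure D3:**
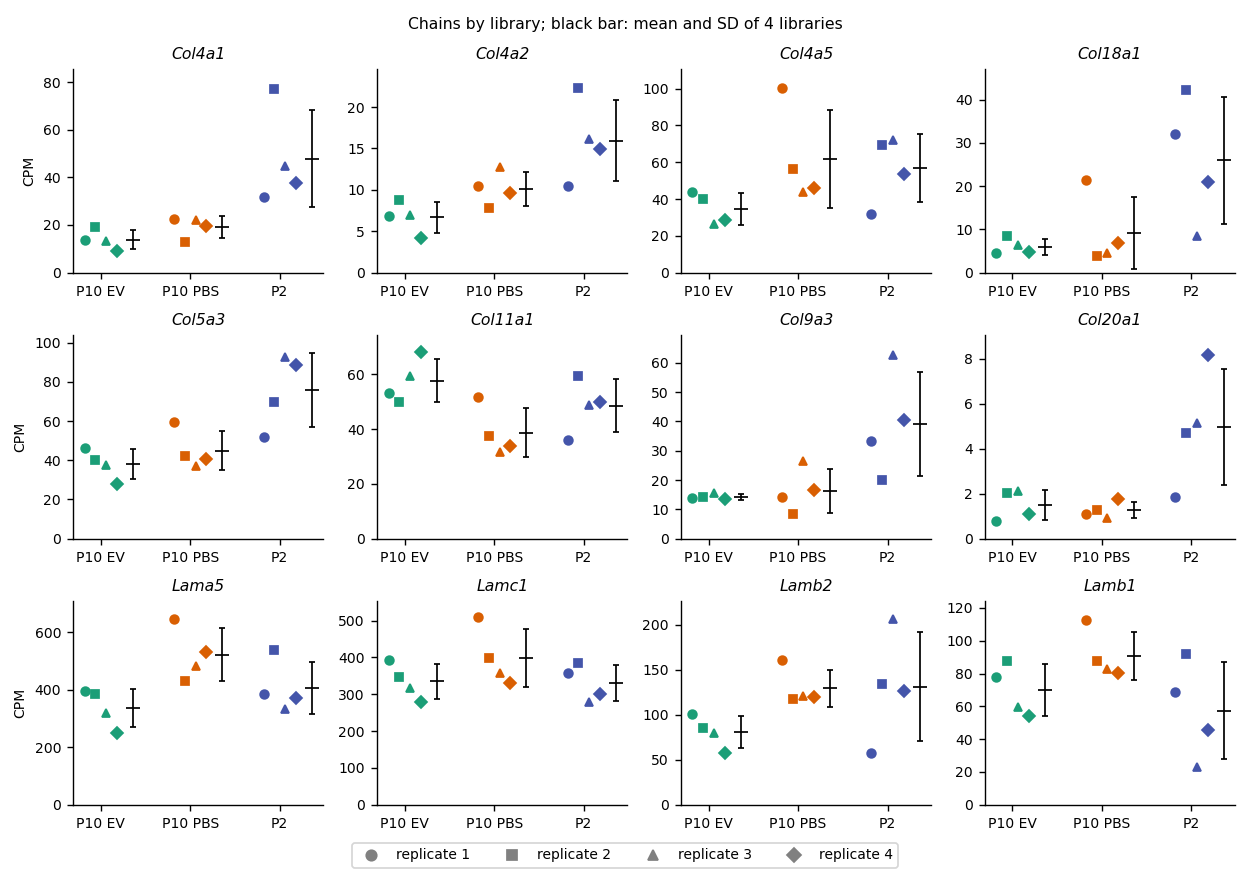
CPM of 12 chains in every library of P10 EV, P10 PBS and P2, with the mean and SD of 4 libraries as a black bar and the replicate number as the marker's shape. For Col4a1 both passage 10 groups lie below all P2 libraries (31.7 to 77.2 CPM), and for Lama5 the P10 EV libraries (248 to 394 CPM) lie below the P10 PBS libraries (429 to 647 CPM).

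In P10 EV against P10 PBS cells, no chain was called by edgeR's test, and neither was any of the 16058 genes (0%). At an unadjusted p under 0.05, 1 chain was higher and 5 lower (2.78% and 13.9%, against 2.85% and 4.39% of all genes). DESeq2's Wald test called 0 chains, beside 30 genes as higher and 37 as lower of 16050. Lama5 had the smallest p of the chains. It was at 394, 383, 319 and 248 CPM in P10 EV, against 647, 429, 481 and 531 CPM in P10 PBS libraries, and all P10 EV libraries lay below all P10 PBS libraries. Its log2 fold change was -0.63 ± 0.19 (adjusted p = 0.543, edgeR), and the P2 libraries, at 384, 536, 332 and 371 CPM, overlapped both groups. Lamb2, the beta chain of synaptic and vascular laminins, was at 101, 85.2, 79.4 and 57.9 CPM in P10 EV, against 160.4, 117, 120.2 and 119 CPM in P10 PBS libraries (-0.68 ± 0.30, adjusted p = 0.670, edgeR). These groups did not overlap either, while P2 libraries spread from 57.7 CPM in replicate 1 to 206 CPM in replicate 3.

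Lama4, the alpha chain of vascular laminins, was the chain with every P10 EV library above every P10 PBS library (2.78%, against 3.74% of all genes), at 17.0, 21.1, 23.7 and 22.9 CPM in P10 EV, against 11.4, 15.3, 16.3 and 13.8 CPM in P10 PBS (0.58 ± 0.35, adjusted p = 0.777, edgeR). The P2 libraries of Lama4, from 7.53 to 35.7 CPM, covered both groups. Col11a1 was at 53.3, 50.0, 59.4 and 68.1 CPM in P10 EV, against 51.6, 37.5, 31.5 and 33.9 CPM in P10 PBS libraries (0.58 ± 0.19, adjusted p = 0.551, edgeR). P10 PBS replicate 1 reached into the P10 EV range. The P2 libraries of Col11a1, at 35.9, 59.4, 48.8 and 49.8 CPM, overlapped both groups. Col4a5 was at 43.7, 40.0, 26.2 and 28.4 CPM in P10 EV, against 101, 56.4, 43.7 and 45.9 CPM in P10 PBS libraries (-0.83 ± 0.31, adjusted p = 0.604, edgeR), and P10 EV replicate 1 lay at the level of P10 PBS replicate 3. The P2 libraries of Col4a5, at 31.8, 69.1, 72.2 and 53.6 CPM, overlapped both groups. For Col4a1 and Col4a2 the P10 EV and P10 PBS libraries overlapped. Their log2 fold changes were -0.47 ± 0.30 and -0.61 ± 0.27 (adjusted p = 0.782 and 0.678, edgeR). Chains with P10 EV wholly below P10 PBS were Lama5, Lamb2 and Col28a1 (8.33%, against 3.84% of all genes). The median log2 fold change was -0.62 over basement membrane collagens, -0.25 over laminins, 0.06 over fibrillar collagens and -0.12 over other collagens, and -0.18 over the 36 chains against 0.01 over all genes.

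Within type V collagen the chains differed in how they stood between groups. Col5a2 was at 76.1, 93.5, 70.5 and 67.2 CPM in P10 EV, 119, 102, 92.4 and 84.9 CPM in P10 PBS, and 61.5, 82.1, 130.0 and 96.0 CPM in P2 libraries. Col5a1 was at 31.7, 32.1, 23.9 and 21.0 CPM in P10 EV, 38.8, 37.0, 24.0 and 26.7 CPM in P10 PBS, and 48.7, 52.2, 23.8 and 31.2 CPM in P2 libraries. All 3 groups of both chains overlapped, unlike P10 EV and P2 for Col5a3, but the difference between the chains was not tested. Col16a1 was at 37.5, 48.5, 45.4 and 34.7 CPM in P10 EV, 42.2, 31.9, 47.3 and 52.7 CPM in P10 PBS, and 32.2, 73.2, 27.5 and 32.3 CPM in P2 libraries, with P2 replicate 2 apart. Col12a1, which links fibrils to their surroundings, ran from 38.1 to 73.9 CPM in P10 EV, from 21.9 to 120.0 CPM in P10 PBS and from 38.2 to 108 CPM in P2 libraries, and all 3 groups overlapped.

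**Figure D4:**
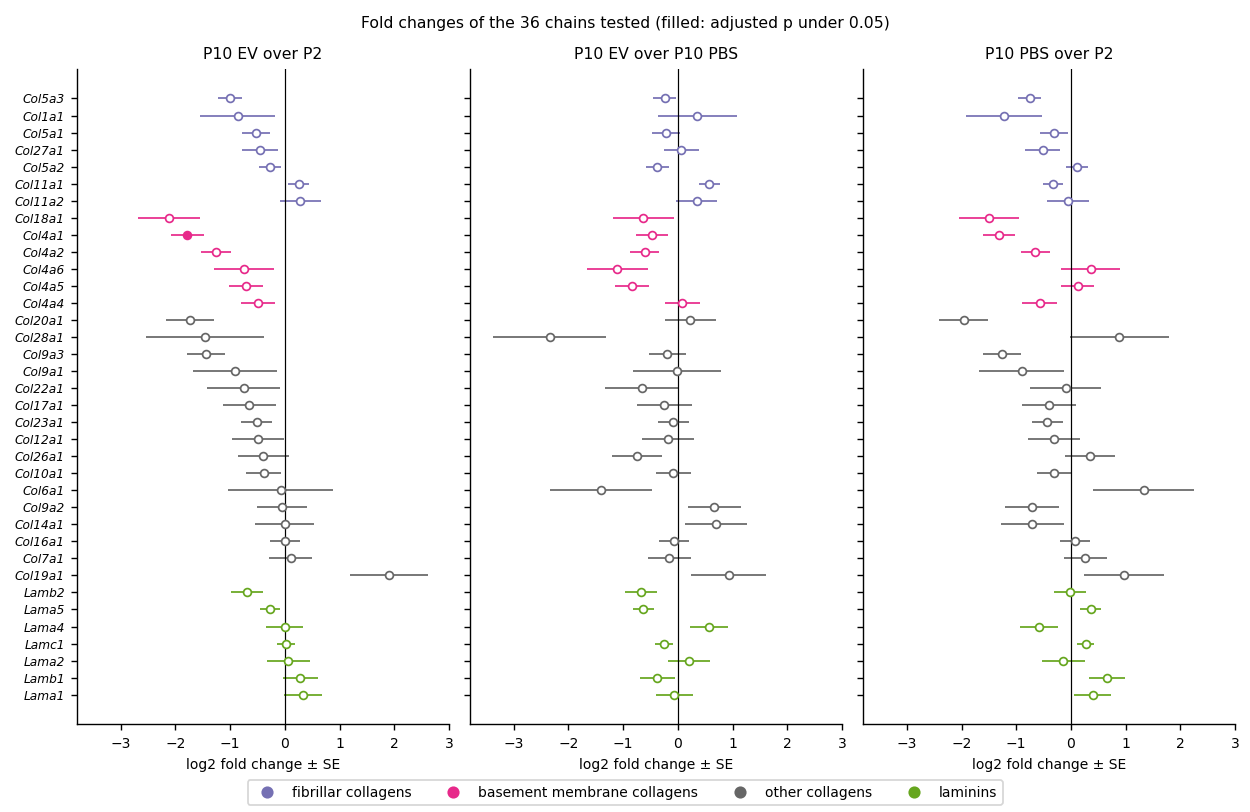
Log2 fold change with its SE (edgeR) of the 36 tested chains in P10 EV over P2, P10 EV over P10 PBS and P10 PBS over P2, coloured by class; a filled point has an adjusted p under 0.05. Col4a1 in P10 EV over P2 (-1.79) is the only filled point, and all 6 basement membrane collagens lie left of 0 in that panel.

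The balance within pairs of chains was set out as FPKM ratios in each library. Col4a1 and Col4a2 join in the same trimer, 2 copies of Col4a1 to 1 of Col4a2. Their ratio was 1.98, 2.12, 1.90 and 2.14 in P10 EV, 2.10, 1.58, 1.70 and 1.99 in P10 PBS, and 2.96, 3.37, 2.69 and 2.46 in P2 libraries. Both passage 10 groups lay below every P2 library. The means were 2.03 ± 0.112 in P10 EV, 1.84 ± 0.242 in P10 PBS and 2.87 ± 0.390 in P2 cells (SD, n = 4 each), and each passage 10 group differed from P2 with p = 0.0286 by a two-sided exact permutation test, the smallest p that 4 against 4 libraries allow, and 0.114 after adjustment over 12 ratio tests. Lamb1 to Lamb2, the 2 beta chains that can join Lama5 and Lamc1, had a ratio of 0.511 ± 0.0783 in P10 EV and 0.411 ± 0.0181 in P10 PBS cells (SD, n = 4 each; exact permutation p = 0.0286, adjusted 0.114). Every P10 EV library was above every P10 PBS library, and the P2 libraries, at 0.698, 0.402, 0.0662 and 0.211, covered both. Lamb1 to Lamc1 was 0.167 ± 0.0240 in P10 EV, 0.183 ± 0.00838 in P10 PBS and 0.133 ± 0.0529 in P2 cells, with all groups overlapping (SD, n = 4 each). Col4a5 to Col4a6 was 5.48 ± 1.40 in P10 EV, 5.75 ± 2.09 in P10 PBS and 5.53 ± 1.52 in P2 cells, also with overlap (SD, n = 4 each). The pairs Col4a5 with Col4a6 and Lamb1 with Lamb2 were added after the data had been seen. For 2 other planned pairs, Col1a1 with Col1a2 and Col6a1 with Col6a2, only levels are given and no ratio was tested.

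**Figure D5:**
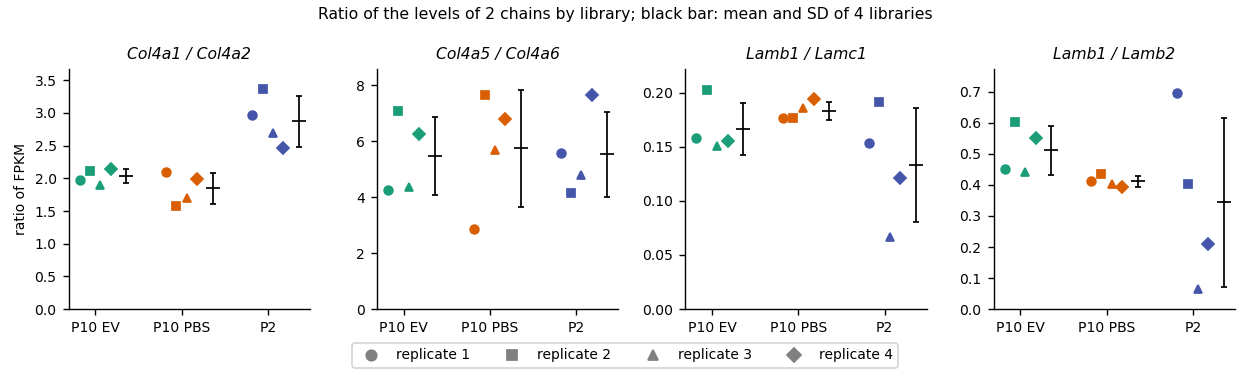
Ratio of the FPKM of 2 chains in every library of P10 EV, P10 PBS and P2 for 4 pairs, with the mean and SD of 4 libraries as a black bar and the replicate number as the marker's shape. Col4a1 to Col4a2 lies at 1.58 to 2.14 in the 8 passage 10 libraries and at 2.46 to 3.37 in the P2 libraries.

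Genes that fold, cross-link, anchor and bind these chains were read from 3 lists with 65 genes, of which 58 were tested. None was called in any of the 3 comparisons by edgeR's test. Of 29 tested genes of collagen processing, 0 were higher and 5 lower in P10 PBS against P2 at an unadjusted p under 0.05, 0 and 3 in P10 EV against P10 PBS, and 0 and 8 in P10 EV against P2. For 12 further basement membrane components these counts were 0 and 5 in P10 PBS against P2, 0 and 3 in P10 EV against P10 PBS, and 0 and 7 in P10 EV against P2. For 17 matrix receptors they were 1 and 2 in P10 PBS against P2, 0 and 2 in P10 EV against P10 PBS, and 1 and 3 in P10 EV against P2. Of all genes, 5.97% were higher and 7.65% lower in P10 PBS against P2, 2.85% and 4.39% in P10 EV against P10 PBS, and 8.28% and 10.9% in P10 EV against P2. DESeq2's Wald test called 5 of the 58 as lower in P10 PBS against P2, 9 as lower in P10 EV against P2, and none in P10 EV against P10 PBS. Of 16050 genes it called 360, 618 and 37 as lower in these 3 comparisons. With edgeR, leaving out P2 replicate 1 gave 5 called as lower in P10 PBS against P2, and 12 as lower and 1 as higher in P10 EV against P2, in the fit that called 615 and 1429 of 16148 genes as lower. Leaving out P2 replicate 2 gave 3 as lower in each of these comparisons (79 and 93 of 16088 genes), and leaving out P2 replicate 4 gave 1 as higher in P10 PBS against P2 (22 of 16348 genes). The median log2 fold change of the basement membrane components was -0.65 in P10 EV against P2, with 11 of 12 below 0, -0.39 in P10 PBS against P2 and -0.17 in P10 EV against P10 PBS. For collagen processing these medians were -0.35, -0.002 and -0.24, with 24 of 29 below 0 in P10 EV against P2. For matrix receptors they were 0.05, 0.21 and -0.18, with 8 of 17 below 0 in P10 EV against P2. In that comparison 51.2% of all genes were below 0.

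The most expressed gene of each list overlapped between all groups. Ppib, a prolyl isomerase of procollagen folding, averaged 122 ± 9.94 FPKM in P10 EV, 134 ± 8.10 FPKM in P10 PBS and 129 ± 17.9 FPKM in P2 cells (SD, n = 4 each). Smoc1, a calcium-binding basement membrane glycoprotein, averaged 49.7 ± 4.08 FPKM in P10 EV, 47.3 ± 8.13 FPKM in P10 PBS and 74.0 ± 28.0 FPKM in P2 cells, with P2 replicate 3 the highest. Its log2 fold change was -0.64 ± 0.22 in P10 EV against P2 (adjusted p = 0.162, edgeR). Itgb1, the beta subunit common to the collagen and laminin integrins, averaged 133 ± 4.10 FPKM in P10 EV, 128 ± 10.3 FPKM in P10 PBS and 121 ± 13.9 FPKM in P2 cells. P4hb, a subunit of prolyl 4-hydroxylase, Agrn, which binds laminin, and Ddr1, a collagen-activated kinase, were next in their lists at 120, 44.0 and 52.3 FPKM over all libraries. Their log2 fold changes in P10 EV against P10 PBS were -0.24 ± 0.14, -0.05 ± 0.18 and -0.37 ± 0.23, with adjusted p of 0.770, 0.971 and 0.782 (edgeR).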

How the data were processed

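Poly(A) RNA of 12 libraries, 4 per group, was sequenced as read pairs, per the labels' protocols. The authors deposited raw counts per gene and FPKM, which scale the counts by gene length and library size. HISAT2 2.0.4 and StringTie 1.3.0 are named in the submitters' processing notes, without their roles. No source used here gives the counting program, strand setting or genome build. A second deposited table repeats the values, and 0 cells differed. Library columns were matched to samples by the codes in the labels.

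Of 34745 genes, 10536 had no read and 16058 passed edgeR's filterByExpr (minimum count 10). edgeR 4.0.16 (R 4.3.3) fitted TMM-scaled counts of all 12 libraries with 1 mean per group (9 residual degrees of freedom), and its quasi-likelihood test was adjusted by Benjamini-Hochberg over these 16058 genes. Genes were called, and are said to have risen or fallen, at an adjusted p under 0.05. An SE is the size of the log2 fold change before edgeR's shrinkage over the square root of the test's F. The log2 fold changes printed are those after shrinkage. TMM factors were 0.941 to 1.038. FPKM ratios were tested by exact two-sided permutation on log2 values. Alternatives were DESeq2 1.42.0, its size factors in edgeR, limma 3.58.1 on log2(FPKM + 1), no filter, 8 libraries only, a replicate block, a fold change of at least 2, each library left out, and the 4 libraries with liver transcripts left out. The edgeR steps were tested on simulated data with 4-fold changes in 200 of 16058 genes. They recovered 165 of these, with 10 false calls, and made 0 calls in a comparison without changes. Figures were drawn with matplotlib 3.10.9.

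Replicate numbers come from the sample titles. The labels also carry the same 4 codes through all 3 groups, 1 for each number, without saying what a code stands for. Deviations of same-numbered libraries correlated at 0.138 to 0.370 for P10 EV and P10 PBS, 0.0874 to 0.187 for P10 EV and P2, and -0.0845 to 0.211 for P10 PBS and P2. The P10 PBS library that correlated most with a P10 EV library had the same number for P10 EV replicates 1, 2 and 4. The P2 library that did so had the same number for P10 EV replicates 2 and 3, and for P10 PBS replicate 4 only. The blocked value stands beside a result where it changes the call. Values per library are given for chains called in any comparison and for the 3 most expressed chains of each class. They are also given for the 3 chains with the smallest p of each comparison. For some of these chains a group is left out or given as a range. Further chains, such as those whose groups did not overlap, were added after their values were seen. Of the partner lists, which held no called gene, the most expressed are named. The chains and lists were chosen with earlier results of these data known. Genes of near-identical sequence were not separated further than the deposited counting did. The values of 1 chain are not reported here, and it is not drawn.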

Additional observations from a re-analysis of the deposited data

Results flagged for a closer look

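Among 54 sets of 4 libraries of a group, taken from 14 chains and 4 class sums, 4 had a library far from the other 3 by Dixon's criterion, which chance meets in about 1 of 20 sets. Lamb2 was at 160.4 CPM in P10 PBS replicate 1 and at 117 to 120.2 CPM in the other P10 PBS libraries. Col16a1 was at 73.2 CPM in P2 replicate 2 and at 27.5 to 32.3 CPM in the other P2 libraries. Basement membrane collagens summed to 22.1 FPKM in P10 PBS replicate 1 and to 11.5 to 11.9 FPKM in the other P10 PBS libraries. Laminins summed to 109 FPKM in P2 replicate 2 and to 82.8 to 85.0 FPKM in the other P2 libraries. P10 PBS replicate 1 and P2 replicate 2 are both among the 4 libraries with liver transcripts.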

How the results depend on the processing

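Counts of called chains in P10 EV against P10 PBS were 0 in every setting. Few genes of any kind were called there: 30 as higher and 37 as lower of 16050 with DESeq2's Wald test, and at most 1 in each direction in every other setting. In P10 PBS against P2, where the reported count was 0 in each direction, the chains called as lower were 4 with DESeq2's Wald test, 1 with the replicate block (Col9a3), 0 to 3 on leaving out a library, and 5 without the 4 libraries with liver transcripts, which also gave 2 as higher (Col28a1 and Lamb1) and called 1253 genes as higher and 1067 as lower of 16215. In P10 EV against P2, where 1 chain fell and 0 rose, the chains called as lower were 6 with DESeq2's Wald test, 0 with only the 8 libraries compared, 0 to 8 on leaving out a library, and 8 without the 4 libraries with liver transcripts, which also gave 3 as higher (Col19a1, Lama4 and Lamb1). That setting called 1699 genes as higher and 1636 as lower of 16215 in P10 EV against P2, beside 66 genes lower and 28 higher as reported. It kept only replicates 3 and 4 of P2. In P10 EV against P2, DESeq2's Wald test called 306 genes as higher and 618 as lower. The fit of only the 8 libraries called 4 and 26 of 15642. Leaving out a library gave 2 to 1392 genes as higher and 6 to 1429 as lower. In P10 PBS against P2, the genes called as higher and lower were 232 and 360 with DESeq2's Wald test and 64 and 103 with the replicate block. Leaving out a library gave 15 to 591 and 24 to 615 there. With the replicate block Col4a1 stayed called in P10 EV against P2, and the block changed no call of a chain or partner gene but that of Col9a3 in P10 PBS against P2. With only the 8 libraries compared, Col4a1 had an adjusted p of 0.0584 (edgeR). Over its 15 alternatives its log2 fold change was -1.97 to -1.30 and its adjusted p 3.69e-06 to 0.103. The cause of these shifts was not tested. Of all gene values recomputed for the 14 chains, none that was called changed sign. The 19 chains with too few counts were not tested.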
